A study of Macaca fascicularis with 48 samples.

Results

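The liver of cynomolgus monkeys (Macaca fascicularis) given GS-8873, an inhibitor of hepatitis B virus (HBV) transcripts, was compared with the liver of monkeys given none of it. The comparison takes the 8 liver libraries out of the 48 in the series, chosen by their labels as liver: 4 from animals given 6 mg/kg/day and 4 from animals given 0 mg/kg/day, by oral gavage over 13 weeks. Each group holds 2 males and 2 females, and each library comes from a different animal. The other 40 libraries are of spinal cord and dorsal root ganglia. All animals of both groups were gavaged, no strain, age or infection is given in the labels, and poly(A) RNA was sequenced. The question was which genes differ in liver between dosed and undosed animals.

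As background, the hepatocyte is the main cell of the liver and makes most proteins of the blood plasma. These enter the endoplasmic reticulum through the translocon, receive sugar chains and disulfide bonds there, and leave in coated vesicles; chaperones such as HSPA5 are switched on by the unfolded protein response when folding lags behind. Hepatocytes near the portal vein and near the central vein carry different enzymes, so amino acid breakdown is strongest in the former and drug oxidation in the latter. TENT4A and TENT4B are host poly(A) polymerases that, with ZCCHC14, are known to stabilise HBV RNA.

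The libraries held 50868685 to 53480762 counts in controls and 48775521 to 52636550 in treated animals. ALB, the gene of serum albumin, stood at 120329 to 165174 CPM (the count scaled to a common library total) in liver and at 126 or less in the 40 other libraries, and the myelin gene MOG was at 0.154 or less in liver, so the tissue label held. ALB alone took 14.7% to 16.5% of the counts of control livers and 12% to 12.9% of those of treated livers. Scaling by the trimmed mean of M-values (TMM), which sets the typical gene equal between libraries, gave factors of 0.887 to 0.968 in controls and 1.04 to 1.07 in treated animals. Levels below are CPM after this scaling, and log2 fold changes are treated over control. With plain library totals every log2 fold change moves up by about 0.18, and the median of all genes from 0.01 to 0.18, so differences smaller than this depend on the scaling. In bulk tissue, fewer cells of a type and less RNA per cell cannot be told apart.

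No gene of 12609 tested passed an adjusted p of 0.05 in edgeR's quasi-likelihood test, which is 0% of genes; the smallest adjusted p was 0.101, and limma voom also called 0. At an unadjusted p under 0.05, 8.32% of genes were past the threshold, 458 of them higher in treated liver (3.63%) and 591 lower (4.69%). The 4 treated values all lay above the 4 control values in 258 genes (2.05%), and all below in 390 genes (3.09%). With plain library totals the split turned to 2181 higher and 165 lower at that p, and to 1421 and 89 genes whose groups did not overlap. DESeq2 called 193 genes at an adjusted p under 0.05, 43 higher (0.378% of 11386 with an adjusted p) and 150 lower (1.32%), and 149 of the 193 had groups that did not overlap. A single edgeR fit of all 48 libraries called 11 genes in liver (0.0873%). Of all genes 51.9% had a positive and 48.1% a negative log2 fold change. The side also went with level: the median was 0.11 in the 1261 genes of lowest mean level and -0.06 in the 1261 of highest. Shares over all genes given below are not matched for level, so small medians of lists of low or high genes are to be read beside these 2 values. Since edgeR called none, genes are described below as higher or lower, with DESeq2's adjusted p as the alternative, and no gene is called changed.

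**Figure D1:**
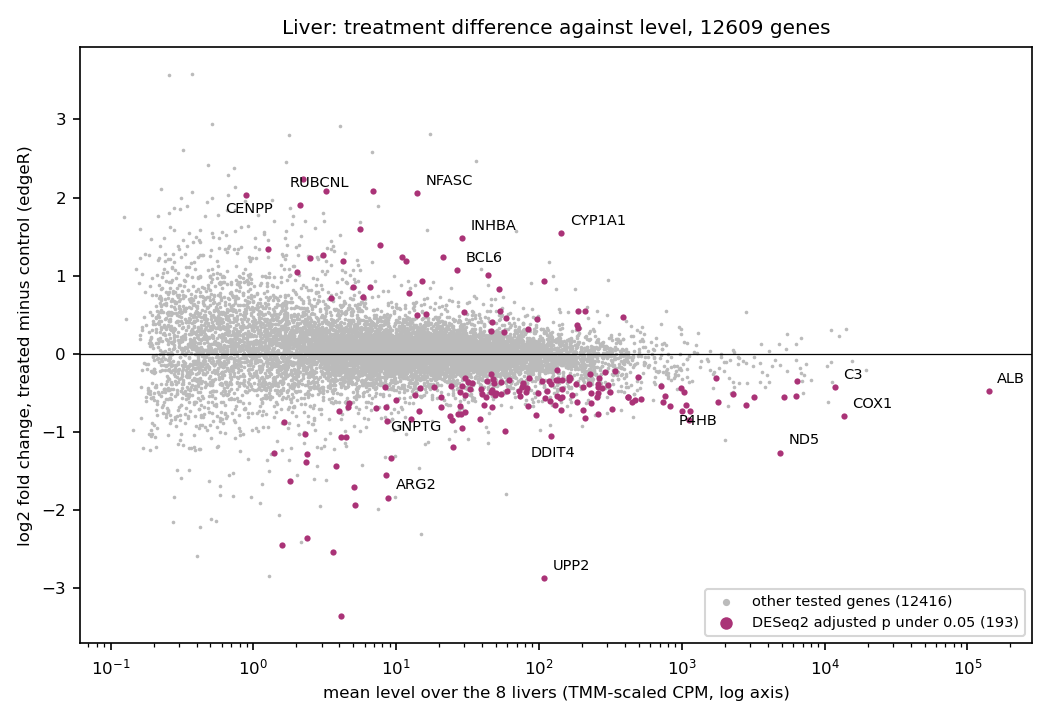
Log2 fold change of treated over control (edgeR, vertical axis) against the mean level over the 8 livers (TMM-scaled CPM, log axis) for the 12609 genes tested, with the 193 genes that DESeq2 called in colour and the rest in grey. More coloured points lie below 0 (150) than above it (43), and ALB is the point farthest to the right.

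Genes of the endoplasmic reticulum lay lower in treated liver as a group. All 18 tested genes of a list of the unfolded protein response had a negative log2 fold change, with a median of -0.43 against 0.01 over all genes, and 11 of the 18 (61.1%) were at an unadjusted p under 0.05 on the lower side, against 4.69% of all genes. P4HB, the protein disulfide isomerase that joins cysteines in new secreted proteins (chromosome 16 from 79434614 to 79456240, Macaca_fascicularis_5.0 as for all coordinates), stood at 994, 866, 992 and 1209 CPM in controls 1 to 4 and at 620, 652, 684 and 577 CPM in treated animals 1 to 4. Every treated animal lay below every control. Its log2 fold change was -0.68 ± 0.13 (SE), with an adjusted p of 0.236 in edgeR and 5.25e-05 in DESeq2. HSPA5, the main chaperone of the compartment, stood at 664, 472, 565 and 755 CPM against 382, 302, 486 and 498 CPM. Control 2 was the lowest control and lay inside the treated range, so these groups overlap. The difference was -0.58 ± 0.16, with adjusted p-values of 0.396 in edgeR and 0.0438 in DESeq2.

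HYOU1, an HSP70-like chaperone, was at -0.67 ± 0.18 and MANF, a small secreted protein of the compartment, at -0.67 ± 0.17. SDF2L1 was at -0.78, CRELD2 at -0.87, the calcium-binding chaperone CALR at -0.46 and the disulfide isomerase PDIA3 at -0.30. DESeq2 called 6 of the 18, all lower, where it called 1.32% of all genes with an adjusted p lower, and edgeR called none. In 4 of the 18 (22.2%) the groups did not overlap on the lower side, against 3.09% of all genes. Summed over the list, the animals stood at 5126 to 6320 CPM in controls and at 3879 to 4691 CPM in treated animals, ranges that do not overlap. With plain library totals the median of the list was -0.25. The integrated stress response, which shares part of its signalling with the reticulum, was less uniform: 16 of 25 genes were lower and 9 higher, and the median of -0.17 turned to 0.01 with plain library totals and to 0.08 without control 4. DDIT4, an inhibitor of the growth kinase mTORC1, was at -1.06 ± 0.20, from 181, 276, 108 and 101 CPM in controls to 80.2, 120, 43.6 and 66 CPM in treated animals. Males were the higher animals in both groups, and the groups overlap.

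Genes on the path into and out of the reticulum were added to the lists after liver values were seen, so their counts are description only. Of 22 genes of the translocon and signal peptidase, 19 were lower and 8 had groups that did not overlap on the lower side (3.09% of all genes), with a median of -0.16 that turned to 0.01 with plain library totals. SRPRA, the receptor of the signal recognition particle, was at -0.50, and SSR4, a translocon-associated subunit, at -0.34. Of 34 genes of N-glycosylation, 25 were lower with a median of -0.09, which turned to 0.09 with plain library totals; DDOST, of the enzyme that attaches the sugar chain, was at -0.38. Of 26 genes of the COPI and COPII vesicle coats and their cargo receptors, 21 were lower with a median of -0.09, which turned to 0.08 with plain library totals. GPAA1 and PIGT, both subunits of the enzyme that fixes glycolipid anchors to proteins, stood at -0.68 ± 0.12 and -0.50 ± 0.09, each with groups that did not overlap.

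**Figure D2:**
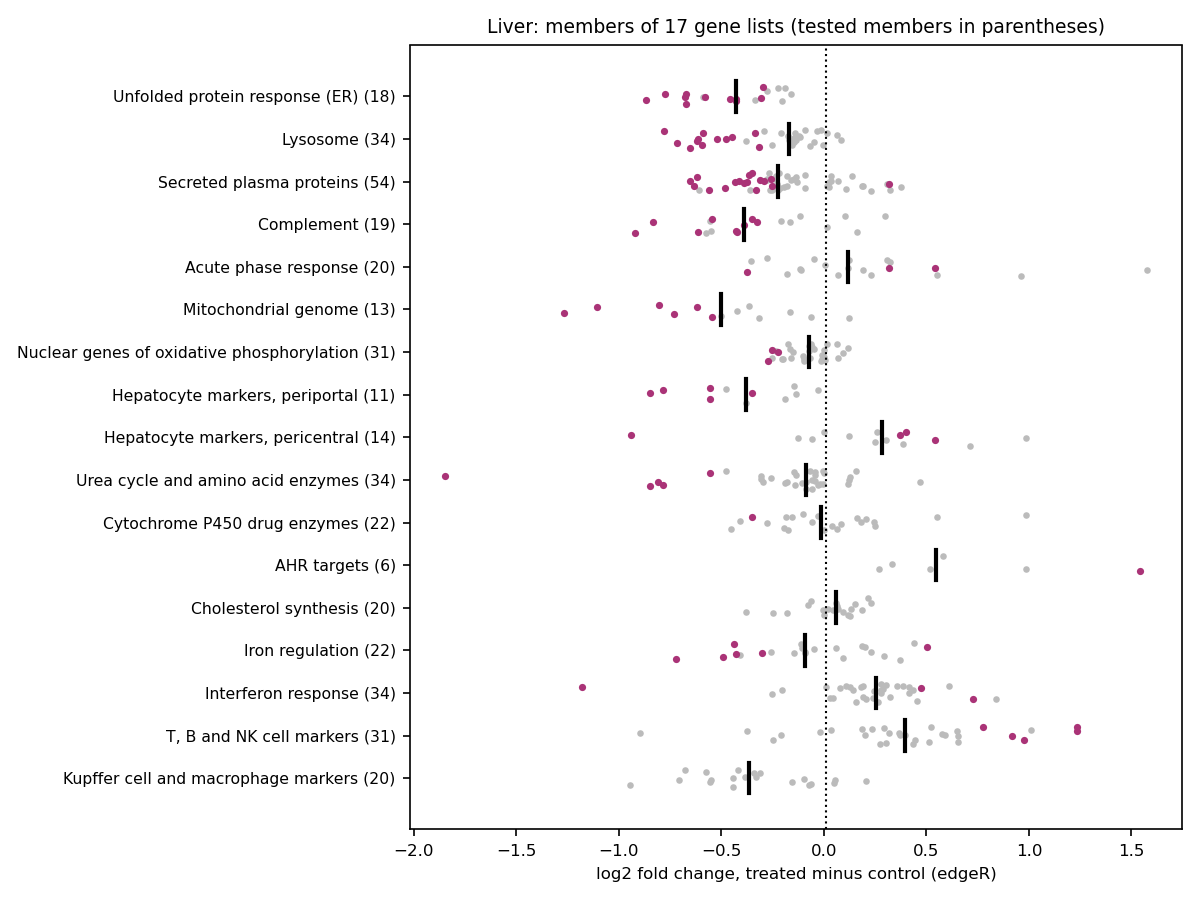
Log2 fold change of treated over control (edgeR, linear axis) of each tested gene in 17 gene lists, with genes at an unadjusted p under 0.05 in colour, the list median as a black bar and the median of all genes, 0.01, as a dotted line. The unfolded protein response list lies wholly below 0. With plain library totals every value moves up by about 0.18, which turns the medians of the lists Lysosome and Iron regulation to the other side. The medians of the urea cycle (-0.09), nuclear oxidative phosphorylation (-0.07) and cytochrome P450 (-0.01) lists are also smaller in size than this shift, so their side depends on the scaling too.

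Genes of secreted plasma proteins lay mostly on the lower side. Of 54 tested, 39 were lower and 15 higher, with a median of -0.22, and 16 (29.6%) were at an unadjusted p under 0.05 on the lower side against 4.69% of all genes. The median was -0.05 with plain library totals. ALB (chromosome 5 from 61181500 to 61199596) stood at 174996, 165609, 153603 and 162821 CPM in controls and at 112101, 124382, 113517 and 119845 CPM in treated animals, and no treated animal reached the lowest control. Its difference was -0.48 ± 0.12, with adjusted p-values of 0.361 in edgeR and 1.53e-06 in DESeq2. SERPING1, the inhibitor of the first complement component, was at -0.62 ± 0.12, from 2091, 2147, 2354 and 2091 CPM to 1445, 1270, 1620 and 1330 CPM, again without overlap. HRG, a plasma glycoprotein that binds heparin and metals, was at -0.56 and ITIH2, which binds hyaluronan, at -0.65. Of the clotting factors, F2 (prothrombin) was at -0.31, F7 at -0.43 and F10 at -0.29.

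The complement list was lower as well, with 15 of 19 genes on that side, a median of -0.39 (-0.21 with plain library totals, -0.25 without control 1) and 9 genes at an unadjusted p under 0.05 (47.4%, against 4.69% of all genes). C3, the central component, stood at 13563, 13188, 14288 and 13351 CPM in controls and at 10411, 9816, 9840 and 10288 CPM in treated animals. The groups lie far apart relative to their spread, 13597 ± 485 against 10089 ± 305 CPM (SD, n = 4). C3 was at -0.43 ± 0.11, with adjusted p-values of 0.361 in edgeR and 5.57e-07 in DESeq2. C8G was at -0.61 and C7, a component of the membrane attack complex, at -0.92. Of 20 acute phase genes 13 were higher and 7 lower with a median of 0.12, which was 0.22 without control 1, 0.035 without control 4 and 0.19 without treated animal 4. SERPINA3, a protease inhibitor, was at -0.37 with groups that did not overlap. FGA and FGG, which encode fibrinogen chains, were at 0.32 ± 0.13 and 0.31 ± 0.13, and SAA2, an inducible serum amyloid, stood in treated animals at 214, 23.4, 138 and 40.5 CPM against 58.6, 23.3, 22 and 36 CPM in controls.

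Genes of the lysosome, where the cell breaks down proteins, lipids and sugar chains, lay mostly lower. Of 34 tested, 31 were lower and 12 (35.3%, against 4.69% of all genes) were at an unadjusted p under 0.05 on that side. In 8 of the 34 (23.5%) the groups did not overlap on that side, against 3.09% of all genes. The median was -0.17, 0.00 with plain library totals and -0.27 without treated animal 1. GNPTG, part of the transferase that marks hydrolases for delivery to the lysosome (chromosome 20 from 1370248 to 1381825), stood at 36.3, 34.8, 39.1 and 34.3 CPM in controls and at 23, 18.3, 19.6 and 23.3 CPM in treated animals. The highest treated animal was well under the lowest control. Its difference was -0.78 ± 0.11, with adjusted p-values of 0.23 in edgeR and 5.81e-07 in DESeq2; 4 of its 1232 exon bases also lie in TSR3 on the other strand, and counting did not use strand. LAMP1, a major membrane protein of the lysosome (chromosome 17 from 95803417 to 95829861), stood at 262, 264, 250 and 235 CPM in controls and at 129, 166, 174 and 145 CPM in treated animals, without overlap. LAMP1 was at -0.72 ± 0.12.

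Enzymes of the lysosome lay on the same side. The acid sphingomyelinase SMPD1 was at -0.47 ± 0.08, the protease CTSD at -0.60 ± 0.11 and the sphingolipid activator precursor PSAP at -0.62. FUCA1, which removes fucose from glycoproteins, belongs to a list of further hydrolases added after values were seen, in which 27 of 32 were lower; it stood at 271, 246, 277 and 279 CPM in controls and at 170, 128, 174 and 132 CPM in treated animals. Markers of Kupffer cells, the liver's lysosome-rich macrophages, also leaned lower, with 17 of 20 at a median of -0.36 and none at an unadjusted p under 0.05. That median was -0.09 without control 1, -0.61 without control 2 and -0.17 without control 3. Their summed level was 895 to 2585 CPM in controls and 979 to 1565 CPM in treated animals, which overlap, and their part in the lysosomal values was not tested.

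**Figure D3:**
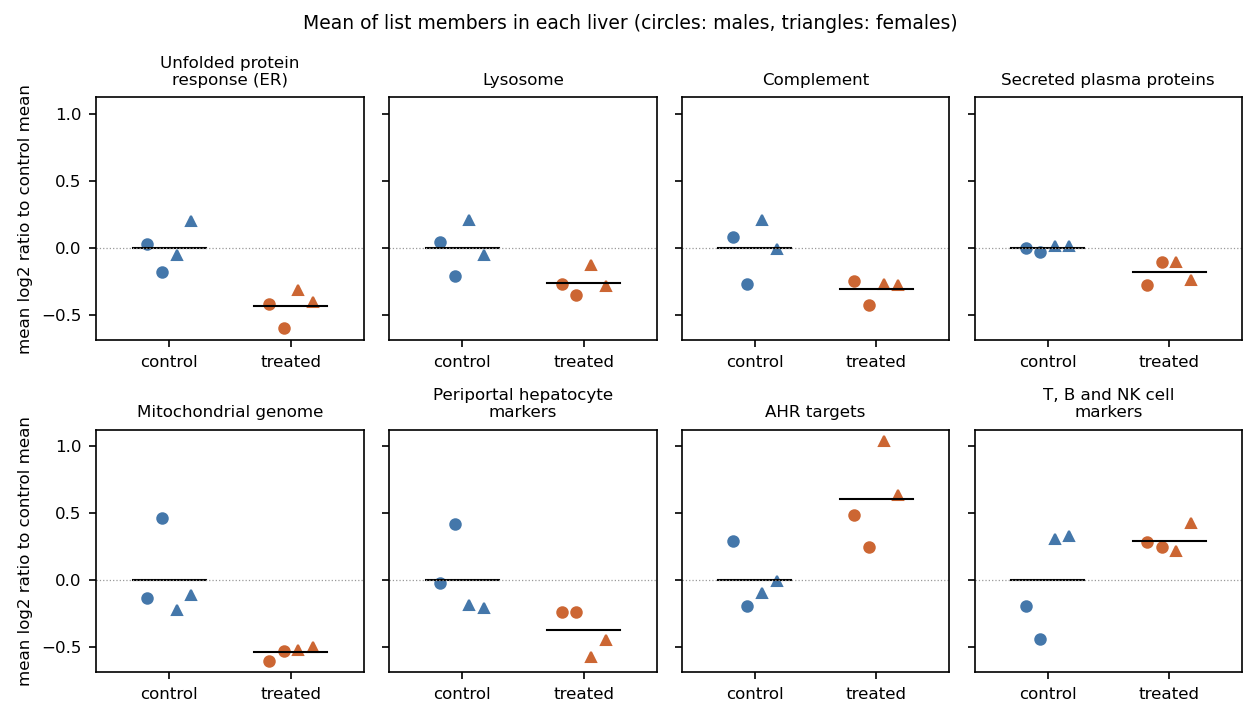
Mean log2 ratio to the control mean over the members of 8 gene lists in each animal (linear axis, circles males, triangles females, the bar the group mean), 4 animals a group. All 4 treated animals lie below all 4 controls on the unfolded protein response list, from -0.60 to -0.32 against -0.18 to 0.20, and control 2 stands highest on the mitochondrial genome list.

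Of the 13 protein genes of the mitochondrial genome, 12 were lower, 6 at an unadjusted p under 0.05 (46.2%, against 4.69% of all genes) and 6 with groups that did not overlap (against 3.09%); the median was -0.50. ND5, a complex I subunit encoded in mitochondrial DNA, stood at 5940, 8678, 6165 and 6457 CPM in controls and at 1263, 3153, 4178 and 3013 CPM in treated animals, a difference of -1.27 ± 0.33. Treated animal 1 was the lowest by far and control 2 the highest. COX1 was at -0.80 and ND3 at -0.73, while COX2 was at 0.12 ± 0.13 with overlapping groups. Mitochondrial genes took 7.90% to 11.8% of the counts in controls, with control 2 the highest, and 6.86% to 7.85% in treated animals. The list's median was -0.26 without control 2 and -0.27 without treated animal 2. The nuclear genes of oxidative phosphorylation had a median of -0.07, nearer to that of all genes. Of 31 tested, 24 were lower (77.4%, against 48.1% of all genes), 3 of them at an unadjusted p under 0.05 (9.68%, against 4.69%). The 31 genes summed to 3501 to 4051 CPM in controls. For comparison, the 1261 genes of highest mean level, from 87.9 CPM up, had a median log2 fold change of -0.06. LRPPRC, which keeps mitochondrial mRNAs stable, stood at 336, 313, 298 and 316 CPM in controls and at 252, 237, 217 and 223 CPM in treated animals, -0.44 ± 0.09, without overlap.

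PCCA and PCCB, the 2 subunits of propionyl-CoA carboxylase, which handles the end products of several amino acids and odd-chain fats, were at -0.71 ± 0.15 and -0.65 ± 0.12. PCCB stood at 153, 176, 152 and 154 CPM in controls and at 95.5, 94.4, 122 and 92.5 CPM in treated animals, without overlap. The fatty acid oxidation enzymes ACADS and HADH were at -0.56 and -0.50, although 10 of 31 genes of that list were higher and its median was -0.10. Among urea cycle and amino acid enzymes 29 of 34 were lower with a median of -0.09, smaller in size than the shift of about 0.18 with plain library totals. The mitochondrial arginase ARG2 was at -1.85 ± 0.43, with both males above both females within each group. Of the 1561 exon bases of ARG2, 610 are shared with VTI1B on the other strand. All 11 markers of periportal hepatocytes were lower with a median of -0.38 (-0.25 without control 3), 5 of them at an unadjusted p under 0.05 (45.5%, against 4.69% of all genes). SDS, the serine dehydratase, was at -0.85 ± 0.22, from 1470, 2193, 1056 and 1083 CPM to 744, 961, 537 and 885 CPM. Of 14 pericentral markers 10 were higher with a median of 0.28: ZNRF3 and AXIN2, negative regulators of WNT signalling, were at 0.40 and 0.54, while the glutamate carrier SLC1A2 was at -0.94.

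CYP1A1, the oxidase induced by the aryl hydrocarbon receptor (chromosome 7 from 52757974 to 52764822), stood at 73.2, 34, 94 and 93.9 CPM in controls and at 197, 121, 322 and 214 CPM in treated animals. All treated animals lay above all controls. Its difference was 1.54 ± 0.27, with adjusted p-values of 0.23 in edgeR and 5.58e-06 in DESeq2. Of its relatives, CYP1A2 was under 1 CPM in all 8 animals and CYP1B1 was at 0.58 ± 0.89, and TIPARP, another target of the receptor, was at 0.27 ± 0.12. All 6 tested targets of that receptor had a positive log2 fold change, with a median of 0.55 (0.90 without control 1), 1 of them, CYP1A1, at an unadjusted p under 0.05 against 3.63% of all genes. The list of 22 genes of cytochrome P450 drug enzymes and their electron donors had 11 higher and 11 lower. The 1 gene of it at an unadjusted p under 0.05 was POR, on the lower side (4.55% of the list, against 4.69% of all genes). POR, an electron donor and not itself a P450, was at -0.35 ± 0.13. CYP3A4, the main drug oxidase of the liver, was at 0.21 ± 0.15. ABCB1, a drug efflux pump, was at 0.45 ± 0.15, and SLC22A7, an organic anion carrier, at 0.60 ± 0.20.

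The smallest p of all belonged to CENPP, a protein of the kinetochore (chromosome 15 from 106499436 to 106787079). It stood at 0.750, 0.699, 1.12 and 1.05 CPM in controls and at 2.85, 3.05, 3.43 and 4.12 CPM in treated animals; the lowest treated animal was well above the highest control. The means were 0.906 ± 0.212 and 3.36 ± 0.557 CPM (SD, n = 4) and the difference 1.91 ± 0.19, with adjusted p-values of 0.101 in edgeR and 4.38e-14 in DESeq2, and 4.38e-14 to 0.50 over the alternatives. Among genes near it on the chromosome, OGN was at -0.56, ECM2 at -0.08, ASPN at 0.04, NOL8 at 0.06 and IPPK at 0.11. In the other 5 tissues CENPP lay between -0.65 and 0.51.

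Other genes higher in treated liver included BCL6, a transcriptional repressor, at 1.07 ± 0.22, from 13.7, 20.4, 17.3 and 16.7 CPM to 29.9, 54.5, 28.1 and 32.2 CPM. INHBA, a subunit of activin, stood at 14.8, 6.61, 26.1 and 16.1 CPM in controls and at 32.4, 47.2, 47 and 41.3 CPM in treated animals, 1.48 ± 0.31, without overlap. SUOX, the sulfite oxidase of mitochondria, was at 0.83 ± 0.14, and CA5A, a mitochondrial carbonic anhydrase, at 0.78 ± 0.14. NFASC, a cell adhesion protein, was at 2.06 ± 0.52, with treated values as spread as 8.71 and 43.9 CPM. MTTP, which loads lipid onto apolipoprotein B, was at 0.47 ± 0.12, without overlap. On the lower side UPP2, a uridine phosphorylase (chromosome 12 from 46759304 to 46895468), stood at 162, 265, 186 and 148 CPM in controls and 32.1, 31.6, 34.8 and 6.90 CPM in treated animals. Treated animal 4 was the lowest and the groups lie far apart. Its difference was -2.87 ± 0.46, with adjusted p-values of 0.23 in edgeR and 8.64e-10 in DESeq2.

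Several of the genes with the smallest p had no list of their own. ITM2B, a membrane protein linked to amyloid processing, stood at 461, 486, 549 and 509 CPM in controls and at 338, 318, 361 and 343 CPM in treated animals, without overlap. Its difference was -0.56 ± 0.09, with an adjusted p of 0.23 in edgeR and 2.48e-10 in DESeq2, and in the 5 other tissues ITM2B lay between -0.37 and -0.27, none of these passing an adjusted p of 0.05. LANCL1, a glutathione-binding protein, stood at 34.9, 25.4, 31.8 and 27.9 CPM in controls and at 18.7, 16.7, 17 and 16.6 CPM in treated animals. The 4 treated animals lay close together below all controls, at -0.80 ± 0.12. LANCL1 was also at -0.50 in cervical cord, -0.67 in thoracic cord, -0.35 in cervical ganglia and -0.50 in lumbar ganglia, and at 0.08 in lumbar cord, none passing in edgeR. COLEC11, a collectin of the complement lectin pathway, was at -0.83 ± 0.13 and COL6A2, a chain of collagen VI, at -0.75 ± 0.12, both without overlap. SIAE, a sialic acid esterase, was at -0.69 ± 0.12, also without overlap. Unlike the others here, SIAE belongs to a list, that of further lysosomal hydrolases added after values were seen.

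On the higher side of that rank stood CGNL1, a junction protein, at 0.44 ± 0.08, from 76.1, 79.9, 92.0 and 80.1 CPM to 107, 109, 118 and 111 CPM. PIK3C2B, a lipid kinase, was at 0.50 ± 0.10, and ASAP3, which acts on ARF GTPases, at 0.93 ± 0.17. OSBPL3, a lipid transfer protein, was at 1.39 ± 0.28, with control 4 at 7.38 CPM above the other controls and still under every treated animal. HECTD2, a ubiquitin ligase, and NUGGC, a nuclear GTPase, were at 0.85 ± 0.16 and 1.24 ± 0.24, both without overlap. Among low genes with large differences, the chemokine CCL21 stood at 3.46, 4.72, 15 and 8.4 CPM in controls and at 3.19, 2.29, 2.25 and 0.988 CPM in treated animals, and TIMP2, an inhibitor of matrix proteases, was at -1.27 ± 0.29.

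**Figure D4:**
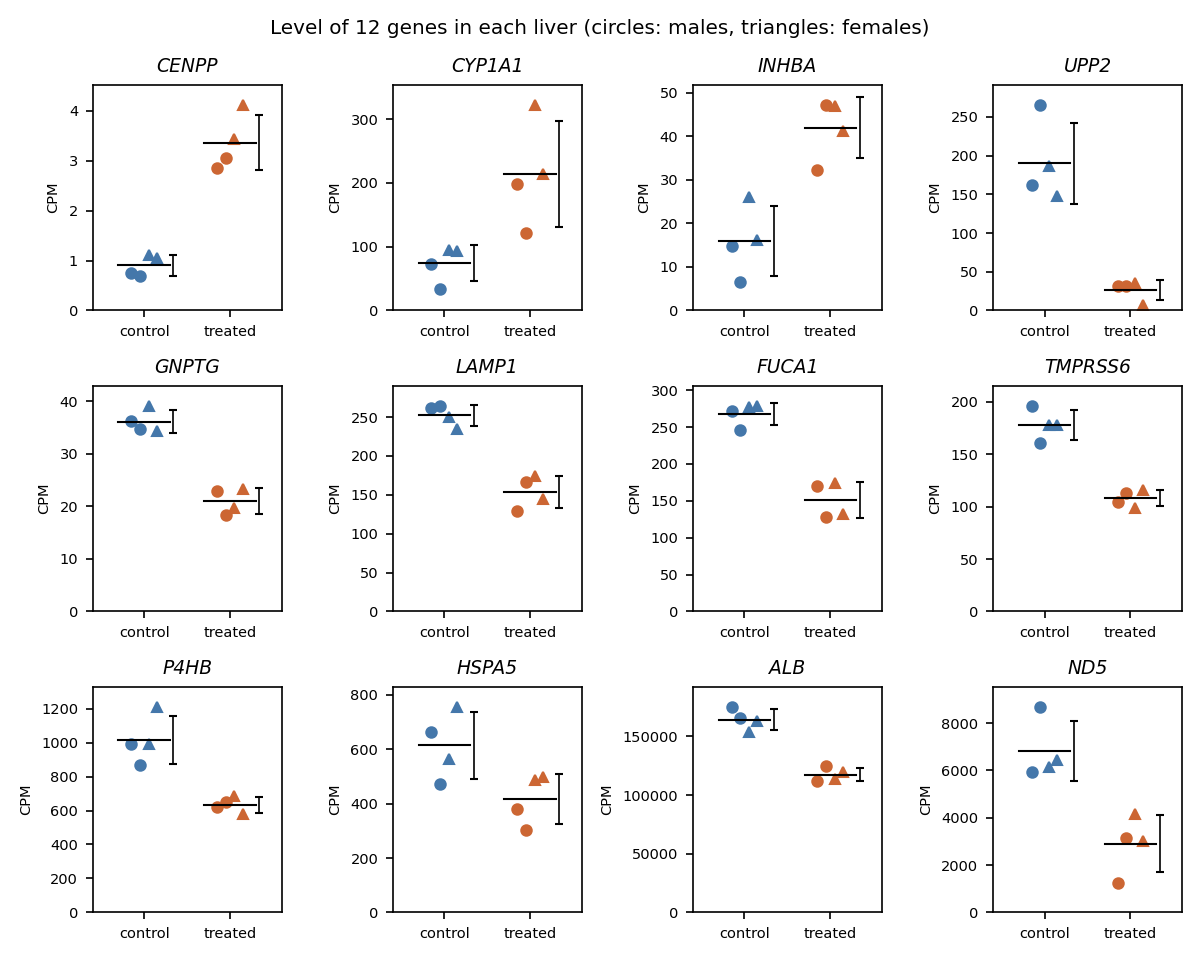
Level of 12 genes in each of the 8 livers (TMM-scaled CPM, linear axes from 0, circles males, triangles females), with the group mean as a line and its SD as a bar, 4 animals a group. CENPP, CYP1A1 and INHBA are higher in all 4 treated animals than in all 4 controls; UPP2, GNPTG, LAMP1, FUCA1, TMPRSS6, P4HB, ALB and ND5 are lower in all 4, and HSPA5 overlaps.

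Of the genes of iron regulation, 13 of 22 were lower (59.1%, against 48.1% of all genes) and 5 were at an unadjusted p under 0.05 on that side (22.7%, against 4.69%). TMPRSS6, the liver protease that restrains hepcidin (chromosome 10 from 14168695 to 14208191), stood at 196, 160, 178 and 178 CPM in controls and at 105, 113, 98.8 and 116 CPM in treated animals, without overlap. Its difference was -0.72 ± 0.10, with adjusted p-values of 0.23 in edgeR and 7.69e-08 in DESeq2. TFR2, an iron sensor of the hepatocyte, was at -0.44 ± 0.12 and FTL, the light chain of ferritin, at -0.49 ± 0.13. HAMP, hepcidin itself, was at -0.05. The list's median was -0.09 over 22 genes, 0.09 with plain library totals and -0.04 without control 3, with values of -0.06 and -0.05 without treated animals 1 and 4.

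Lipoprotein genes were mixed: besides MTTP, the phospholipid transfer protein PLTP was at -0.62, apolipoproteins APOE and APOA1 at -0.50 and -0.37. In glucose metabolism 17 of 32 genes were lower with a median of -0.02, with the glycolytic enzyme PGAM1 at -0.37. Of 16 genes of bile acid synthesis and FXR targets 8 were higher and 8 lower, none at an unadjusted p under 0.05, and CYP7A1, the rate-limiting enzyme, was at -0.18 ± 0.47. NRF2 targets were 9 higher and 10 lower. Of 18 cytosolic heat shock genes 16 were lower with a median of -0.20. Of these 1, DNAJB4, was at an unadjusted p under 0.05 (5.56% of the list, against 4.69% of all genes). Of 19 p53 targets 16 were higher with a median of 0.21, among them XPC, a DNA damage sensor, at 0.21. Of 29 proliferation genes 21 were higher with a median of 0.20. Among these 1, MCM6, was at an unadjusted p under 0.05 (3.45% of the list, against 3.63% of all genes). Cytosolic ribosomal protein genes had a median of -0.03.

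Cholesterol synthesis had 14 of 20 genes higher in treated liver, a median of 0.06 (0.24 with plain library totals) and 0 at an unadjusted p under 0.05. In the spinal cord of the same 8 animals those genes lay lower, and the difference between the tissues' treatment effects was tested in limma with the animal as a block. Against cervical cord 1 of 14630 genes passed an adjusted p of 0.05 (0.00684%), HMGCS1, an early enzyme of the pathway: its effect was 0.23 in liver and -1.80 in cord, a difference of 2.03 ± 0.20 with an adjusted p of 0.00218. Without treated animal 1 the difference was 1.92 and without treated animal 3 it was 1.99, and in neither case did it pass. Against thoracic cord none of 14504 passed (0%), with HMGCS1 at 2.03 ± 0.44 and an adjusted p of 0.394. Of 21 cholesterol genes 11 had a positive difference at an unadjusted p under 0.05 against cervical cord, where 5.23% of all genes did and 3.94% had a negative one, and 12 against thoracic cord, where 1.85% did and 1.19% had a negative one. The medians were 0.07 in liver and -0.74 in cervical cord, and 0.06 and -0.80 for thoracic cord.

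**Figure D5:**
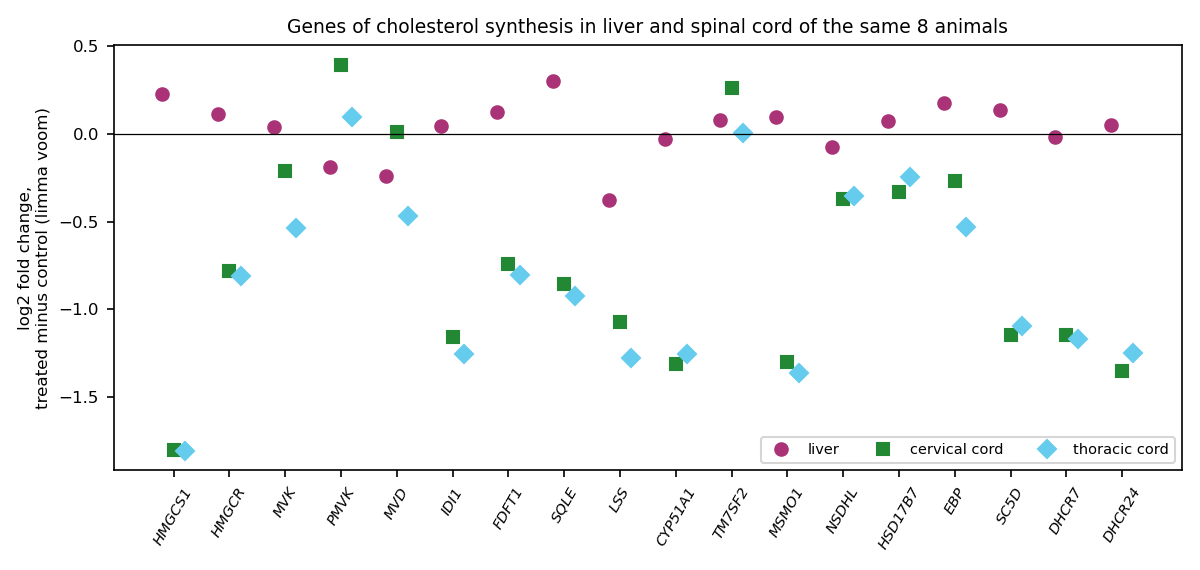
Log2 fold change of treated over control (limma voom, linear axis) of genes of cholesterol synthesis in liver, cervical cord and thoracic cord of the same 8 animals. Most liver values lie near 0, most cord values lie below 0, and HMGCS1 is at -1.80 in cervical cord against 0.23 in liver.

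Other cells of the liver were read from their markers. T, B and NK cell markers had 26 of 31 genes higher with a median of 0.40 (0.23 without control 2, 0.24 without treated animal 2), of which CD79B, a part of the B cell receptor, was at 0.98 ± 0.29 with groups that did not overlap; the summed level of the list was 55.4 to 151 CPM in controls, both male controls being low, and 111 to 163 CPM in treated animals. CD79B stood at 0.916, 0.487, 0.947 and 1.11 CPM in controls and at 1.72, 1.22, 1.62 and 2.20 CPM in treated animals. Of 22 stellate cell and fibroblast markers 8 were higher and 14 lower with a median of -0.03; 4 were at an unadjusted p under 0.05 on the lower side (4.69% of all genes) and 0 on the higher. IGFBP3 was at -0.54 ± 0.15 and decorin, DCN, at -0.49, while the collagen genes COL6A3 and COL3A1 were at 0.25 and 0.18. Endothelial markers were split, 9 higher and 11 lower. Of 34 interferon response genes 31 were higher with a median of 0.26, a median that was 0.13 without control 2, 0.17 without treated animal 1 and 0.12 without treated animal 3. At an unadjusted p under 0.05 stood 3 of the 34. IRF9, a signalling factor of that response, at 0.47 and IFI44 at 0.73 lay on the higher side (5.88%, against 3.63% of all genes). The chemokine CXCL9, at -1.18, lay on the lower side (2.94%, against 4.69% of all genes).

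Of the genes tied to HBV RNA stability, TENT4A was at 9.88 ± 1.39 and 10.2 ± 1.4 CPM (SD, n = 4), a difference of 0.04 ± 0.15, TENT4B was at -0.07 ± 0.13 and ZCCHC14 at 0.01 ± 0.09. The 32 genes of this and other mRNA decay machinery had a median of -0.01. Whether the treatment difference depended on sex was asked with an interaction term: 0 of 12609 genes passed an adjusted p of 0.05 in edgeR (0%), 3.2% were at an unadjusted p under 0.05, and DESeq2 called 27, with 2 animals of each sex a group.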

How the data were processed

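Total RNA from tissue kept in RNAlater was extracted with miRNeasy and made into libraries with the TruSeq stranded mRNA kit, sequenced as 50-base pairs on a HiSeq 2500, per the labels' protocols. The authors deposited raw counts per gene for 48 libraries; per the submitters' processing notes and the file headers, reads were aligned with STAR 2.5.3a and counted with featureCounts 1.4.6-p1 on Ensembl release 94 of Macaca_fascicularis_5.0. The header's command sets no strand or pair option, so each mate counted as a read and overlapping antisense genes share reads.

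The 8 livers were fitted alone with edgeR 4.0.16 (TMM, filterByExpr, robust quasi-likelihood test, sex as a covariate, Benjamini-Hochberg over 12609 genes, threshold 0.05). DESeq2 1.42.0 and limma 3.58.1 were alternatives, and differences between liver and cord used limma voom with the animal as a block. The edgeR, limma and DESeq2 fits were also run on simulated counts with known changes, and the outcome is not given here. The simulation of the cord comparison gave every gene the same spread and held no effect shared by samples of an animal. Genes named are the 12 smallest p in each direction and the 10 largest folds at a mean of at least 1 CPM, up to 5 per list, the DESeq2 calls of smallest p, and set genes such as ALB, and a selection of these is printed; others, such as the neighbours of CENPP, were chosen after their values were seen. The genes and the 45 lists were chosen with earlier results of these data known, and 7 lists were added after liver values were seen. Replicates are separate animals.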

Additional observations from a re-analysis of the deposited data

Results flagged for a closer look

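A sample far from the other 3 of its group was marked in 16 of 258 groups checked (6.20%), where chance alone marks about 1 in 20 (5%). 2 of these concern mitochondria and the same animal, control 2: the share of counts on mitochondrial genes was 11.8%, against 7.90% to 8.22% in the other controls, and its summed mitochondrial mRNA was 133476 CPM, against 81635 to 85044 CPM. In 4 genes treated animal 2 stood apart: BCL6 was highest there at 54.5 CPM, CYP3A4 at 9370 CPM and HAMP at 284 CPM, and CYP1A2 was lowest at 0.0591 CPM.

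Treated animal 3 was highest for CYP1B1 at 4.77 CPM, for F7 at 153 CPM, for PSAP at 748 CPM and for PCCB at 122 CPM. PCCB was also highest in control 2, at 176 CPM. UPP2 was lowest in treated animal 4 at 6.90 CPM, against 31.6 to 34.8 CPM in the other treated animals. ASAP3 was lowest in control 2 at 7.62 CPM, CYP7A1 highest in control 3 at 77.4 CPM, FTL lowest in control 4 at 957 CPM and OSBPL3 highest in control 4 at 7.38 CPM.

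HMGCS1 was marked because its treatment effect differed between liver and cervical cord by 2.03 in the limma test of that difference.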

How the results depend on the processing

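Of the results of liver, the lower side of the unfolded protein response, complement, plasma protein and periportal lists held under every alternative run, and no alternative within edgeR's fit of the 8 livers called a gene. DESeq2 called 193 genes in liver and 27 in the sex interaction; 1 edgeR fit of all 48 libraries called 11, with 294 higher and 266 lower at an unadjusted p under 0.05. Adjusted p ranged over the alternatives from 8.64e-10 to 0.494 for UPP2 and from 1.53e-06 to 1.00 for ALB. With plain library totals 2181 genes were higher and 165 lower at an unadjusted p under 0.05, 1421 and 89 without overlap, and list medians were 0.24 for cholesterol synthesis, -0.049 for plasma proteins, -0.21 for complement, -0.25 for the unfolded protein response, 0.00476 for the lysosome, 0.00538 for the integrated stress response, 0.00608 for the mitochondrial unfolded protein response, 0.085 for iron regulation, 0.088 for N-glycosylation, 0.012 for the translocon and 0.082 for coat proteins. The same scaling gave 0.11 for ECM2, 0.13 for HAMP and 0.10 for TENT4B. Limma voom gave -0.042 for ASPN and 0.016 for HAMP. The cause of these reversals in limma voom was not tested.

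Leaving out each animal in turn gave 0 called genes in liver each time. The median of the mitochondrial genome ranged from -0.63 to -0.26 and that of the integrated stress response from -0.26 to 0.075, that of proliferation from 0.14 to 0.37 and that of fatty acid oxidation from -0.17 to -0.03. Log2 fold changes ranged from -0.32 to 0.30 for ASPN, -0.10 to 1.42 for CYP1B1, -0.51 to 0.27 for CYP7A1, -0.31 to 0.065 for ECM2, -0.41 to 0.40 for HAMP, -0.068 to 0.14 for TENT4A, -0.19 to 0.016 for TENT4B and -0.040 to 0.075 for ZCCHC14, so the sign of each depended on which animal was left out. Against cervical cord the count of called genes ranged from 0 to 2, being 0 without treated animal 1 or 3, where the difference in HMGCS1 was 1.92 and 1.99, and 781 to 1904 genes were at an unadjusted p under 0.05; over all animals left out, the difference in HMGCS1 was 1.92 to 2.16. Against thoracic cord 0 to 1 genes were called, 308 to 707 were at an unadjusted p under 0.05, 707 without control 4 and 666 without treated animal 2, and the difference in HMGCS1 was 1.77 to 2.40, called without control 4.

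Same-numbered control and treated animals were checked for pairing by the correlation of their deviations from the group means. It was 0.0477 to 0.186, over 0.1 in 3 of 4 pairs. Every control correlated best with the treated animal of its own number. Treated animal 1 was the only exception, by a small margin, at 0.0498 with control 2 against 0.0477 with control 1. Animals 1 and 2 were males and animals 3 and 4 females in both groups, so animals of the same number share sex. The deviations were taken without a sex term, and the part of sex in these correlations was not tested. The numbers were not taken to pair the animals in the main fit, and a fit with the number as a block was run beside it. With a replicate block 0 genes were called, 540 were higher and 649 lower at an unadjusted p under 0.05, and the unfolded protein response list kept a median of -0.43; ASPN was at -0.057 and HAMP at 0.021.

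With 4 animals a group, a difference that edgeR did not call is not shown to be absent.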
